A study of Rattus norvegicus with 8 samples.

Results

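The 83 genes described here encode subunits of the mitochondrial respiratory chain and of ATP synthase, with a few of their assembly factors. They were taken by symbol from the platform annotation: names that begin with Nduf, Uqcr, Atp5, Cox4, Cox5, Cox6, Cox7 or Cox8, and Cyc1 or Cycs. Of the 14217 genes that have a probe set with 1 symbol, 83 met this rule, through 92 probe sets, and the brightest probe set over all 8 arrays stood for each gene. Cycs had no probe set with 1 symbol, and 9 probe sets of such genes carried several symbols and were left out. One member, Cox6c-ps1, is a transcribed pseudogene in RefSeq, and 4 of the 83 probe sets have the suffix of sets that match several transcripts. RNA came from scrapings of distal colon mucosa of rats, 4 samples after 11 weeks on a breeder diet (RM3 [E] FG SQC) and 4 after 11 weeks on feed with 10 g quercetin per kg. Quercetin is a flavonol of onions, apples and tea. Strain, sex and age of the rats are not given in the labels, and they leave unsaid whether the samples are from different rats. The p-values therefore refer to sample-to-sample spread, which may be technical.

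The respiratory chain passes electrons from NADH (complex I) and succinate (complex II) through ubiquinone, complex III and cytochrome c to oxygen at complex IV, and the proton gradient that complexes I, III and IV build drives ATP synthase, complex V. Most subunits are encoded in the nucleus and imported, while a small core is encoded by mitochondrial DNA, so that complexes I, III, IV and V are put together from the products of both genomes. Surface colonocytes depend on this machinery, since they burn butyrate from bacterial fermentation as their main fuel.

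Epithelial markers were bright on all 8 arrays: Krt8 had signals of 18887 to 27443 and Epcam of 14685 to 21394, and the colonocyte chloride exchanger Slc26a3 of 9318 to 13340.4. Control array 2 stood apart from the rest. Its signal ratio between 3' and 5' probe sets of GAPDH, which rises when RNA is shortened, was 3.79 against 1.58 to 2.36 on the other 7 arrays, that of beta-actin was 21.4 against 6.79 to 12.4, and that of hexokinase, at 2.76, lay inside the 1.62 to 6.05 of the others. Bulk scrapings cannot tell fewer cells of a type from less RNA per cell. Signals of different probe sets have no common scale, so levels are compared only within a gene, and differences are on the scale of log2(signal + 16).

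No respiratory chain or ATP synthase gene passed the test between the diets. Of the 83 genes 79 were bright enough to be tested, and 0 had an adjusted p under 0.05 in limma's fit across 18625 probe sets. In that fit 2 probe sets passed in all (0.0107%), and 1 of the 10266 genes tested (0.00974%). At an unadjusted p under 0.05 there were 4 members, Ndufv1, Ndufb7 and Atp5me with higher and Cox7a1 with lower signal in the quercetin group, against 9.39% of the 10266 genes tested (6.06% higher and 3.33% lower). These 4 are 5.06% of the members tested. Both shares move with the arrays used. Without control array 1 the count was 8 (10.1% against 9.04% of all genes), without control array 4 it was 2 (2.53% against 8.1% of all genes), and without quercetin array 1 it was 2 (2.53% against 8.19% of all genes). With the GAPDH ratio as a covariate it was 8 (10.1% against 13.4% of all genes). Without control arrays 1 and 2 together it was 2 (2.53% against 6.55% of all genes), and these were Ndufv2 and Ndufaf1, so that 0 of the 4 genes above had an unadjusted p under 0.05 there. With each array centred on its median, the background at that p was 729 higher and 187 lower genes, against 622 and 342 with the values as deposited.

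Across the 79 members, 47 had a higher and 32 a lower mean in the quercetin group, with a median log2 difference of 0.028. The corresponding median over all genes tested was 0.036, with 55.9% higher. The sign of the members' median is not settled, since it was -0.031 without control array 2, -0.018 without control array 4, -0.02 without quercetin array 1 and -0.0093 with the GAPDH ratio as a covariate. The members' differences ran from -0.36 to 0.46. The members are bright, and their median standard error was 0.14 against 0.20 over all genes. The 95% interval of the difference lay within 0.5 log2 units to either side of 0 for 44 of the 79 members, or 55.7%, against 29.3% of all genes, and within 1 unit for 77. The other 2 were Ndufb8 and Ndufaf1, with upper bounds of 1.01 and 1.05. Because 16 is added before the log, these limits correspond to a larger change of the signal itself at dim probe sets such as those of Ndufaf1, Cox7b2 and Ndufa4l2. Ndufb8 and Cox7b2 were singled out after their values were seen.

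**Figure D1:**
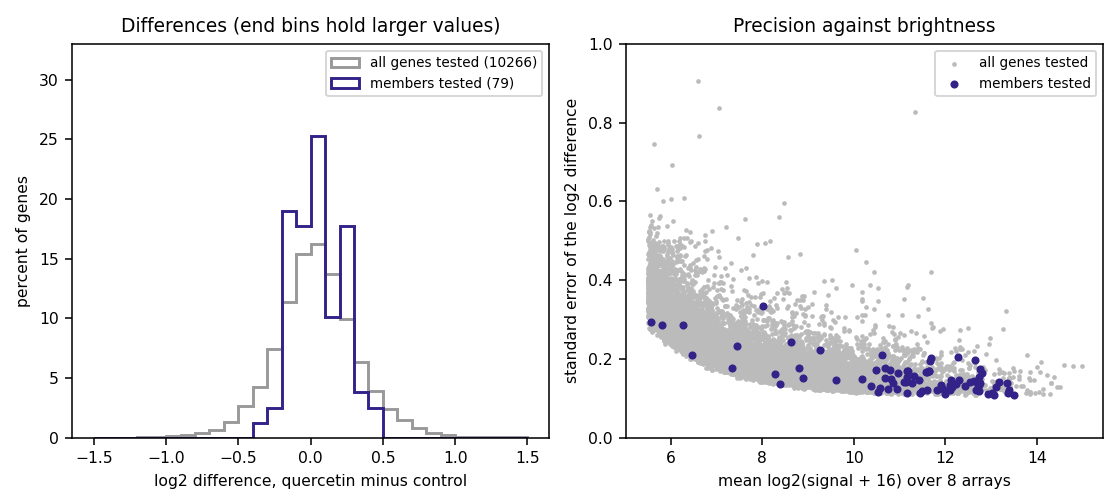
Left, the share of genes in percent against the log2 difference (quercetin minus control) for the 79 members tested and for all 10266 genes tested; right, the standard error of the difference against mean log2(signal + 16), 1 point per gene. The members run from -0.36 to 0.46 and lie mostly among the brighter genes with small errors.

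The promoters of these genes were searched for motifs that the rule did not use. RefSeq (GRCr8) gave a window of 250 bases before and 50 after the start for 74 of the 82 members other than the pseudogene, matched by Entrez identifier. Exact matches on either strand were counted in the whole window for the motifs of factors known for nuclear genes of mitochondria, and matches to different motifs overlapped in 0 members. The NRF1 motif GCGCATGCG was in 7 members, or 9.46%, against 1.66% of all 27457 promoters of that length. These 7 were Ndufa11, Ndufaf4, Ndufaf5, Uqcrc1, Atp5me, Atp5mg and Atp5po. The ETS motif CCGGAAG, which GABP binds, was in 20 (27% against 9.22%), and the YY1 motif AAGATGGCG in 11 (14.9% against 1.93%). Of the 11 YY1 matches all lay on the strand of the gene and 9 began within the 50 bases after the start. The Sp1 motif GGGCGG was in 43.2% against 34.9%, CCAAT in 35.1% against 37.7%, and the ERR motif TCAAGGTCA in 1 member against 0.412% of all. The GC content of the windows had a median of 55.8% in members and 52.3% in all promoters, and the shares are not matched for it. A match describes the letters and is not a measured site.

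The 250 bases before the start are shown for the 4 genes with an unadjusted p under 0.05, 5' to 3' on the gene's strand, with matches on either strand in capitals. Atp5me holds an NRF1, an Sp1 and an ETS match, Ndufb7 an Sp1 and an ETS match, Cox7a1, the muscle isoform, a CCAAT match alone, and Ndufv1 no match in this stretch.
Atp5me (chr14:1464610-1464859, plus strand): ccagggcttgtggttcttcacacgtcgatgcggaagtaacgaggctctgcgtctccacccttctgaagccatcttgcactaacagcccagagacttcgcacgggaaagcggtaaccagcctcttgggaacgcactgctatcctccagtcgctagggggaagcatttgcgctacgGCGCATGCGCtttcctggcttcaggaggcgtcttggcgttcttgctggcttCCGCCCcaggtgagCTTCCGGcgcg
Ndufb7 (chr19:41477292-41477541, minus strand): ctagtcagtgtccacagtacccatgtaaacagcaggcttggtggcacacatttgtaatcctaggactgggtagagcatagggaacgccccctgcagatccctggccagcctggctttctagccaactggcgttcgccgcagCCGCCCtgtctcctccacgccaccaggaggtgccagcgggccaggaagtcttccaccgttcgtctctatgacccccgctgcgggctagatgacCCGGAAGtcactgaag
Cox7a1 (chr1:94568966-94569215, plus strand): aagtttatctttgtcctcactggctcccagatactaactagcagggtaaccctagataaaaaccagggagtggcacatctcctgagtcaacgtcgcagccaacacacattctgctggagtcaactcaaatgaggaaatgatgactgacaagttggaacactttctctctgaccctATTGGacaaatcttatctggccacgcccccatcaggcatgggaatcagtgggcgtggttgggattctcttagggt
Ndufv1 (chr1:210734892-210735141, minus strand): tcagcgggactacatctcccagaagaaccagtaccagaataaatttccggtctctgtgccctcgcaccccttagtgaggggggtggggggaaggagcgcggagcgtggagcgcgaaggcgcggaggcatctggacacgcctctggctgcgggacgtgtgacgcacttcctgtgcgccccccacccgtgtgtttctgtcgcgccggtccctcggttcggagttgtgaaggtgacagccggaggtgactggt

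Complex I, the NADH dehydrogenase, takes electrons from NADH on an arm that stands in the matrix. The 6 nuclear genes of its core that were measured, Ndufv1, Ndufv2, Ndufs1, Ndufs3, Ndufs7 and Ndufs8, all had a higher mean in the quercetin group, with differences of 0.05 to 0.46 and a median of 0.29; 1 had an unadjusted p under 0.05 and 0 passed. Ndufv1 binds the flavin where NADH hands over its electrons. It gave signals of 1503, 1241, 1820.0 and 1584 on control arrays 1 to 4 and 2141, 2436, 1717 and 2166 on quercetin arrays 1 to 4. Of the quercetin arrays only array 3 lay inside the control range, below control array 3. The means were 1537 ± 239 in the control group and 2115 ± 297 in the quercetin group (SD, n = 4 each), with a log2 difference of 0.46 (SE 0.15, 95% interval 0.13 to 0.78, limma adjusted p = 0.333), or 1.37 times the controls on that scale.

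Ndufs7 carries the last iron-sulfur cluster before ubiquinone, and its signals were 1689.6, 1341, 1824 and 1808 on control arrays 1 to 4 and 2146, 2272, 1848 and 1840.2 on quercetin arrays 1 to 4. All 4 quercetin arrays lay above all 4 control arrays, the closest pair being quercetin array 4 and control array 3, and the gene had a log2 difference of 0.28 (SE 0.14, 95% interval -0.014 to 0.58, limma adjusted p = 0.487). Ndufs8, its neighbour in the chain of iron-sulfur clusters, had signals of 653, 577, 803 and 719.8 on control arrays 1 to 4 and 968, 914, 741 and 802 on quercetin arrays 1 to 4. Here quercetin array 3 lay among the controls and array 4 just under control array 3, and the difference was 0.31 (SE 0.15, adjusted p = 0.475). Ndufv2, the iron-sulfur partner of Ndufv1, gave 3819.9, 2364, 2925 and 2558 on control arrays 1 to 4 and 4048, 4101, 2921 and 3159 on quercetin arrays 1 to 4. Quercetin arrays 1 and 2 lay above all controls while control array 1 lay above quercetin arrays 3 and 4, so that the groups overlapped, with a difference of 0.29 (SE 0.17, adjusted p = 0.572). The other core genes, chosen after their values were seen, were Ndufs3 with 0.23 (SE 0.13, adjusted p = 0.581) and Ndufs1, which carries further clusters, with 0.05 (SE 0.15, adjusted p = 0.939).

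Each of the 6 core genes had its lowest signal on control array 2. The mean deviation of the 6 from their 8-array means was -0.015, -0.41, 0.021 and -0.14 on control arrays 1 to 4 and 0.27, 0.25, -0.057 and 0.085 on quercetin arrays 1 to 4. Without control array 2 the median of the 6 differences was 0.19, with 5 genes higher and 1 lower, and without control arrays 1 and 2 it was 0.16, with 6 higher. The part of that array's RNA quality in the core values was not tested; with the GAPDH ratio as a covariate the median was 0.25, with 5 higher and 1 lower. Whether the core differs from the rest of complex I was not tested.

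**Figure D2:**
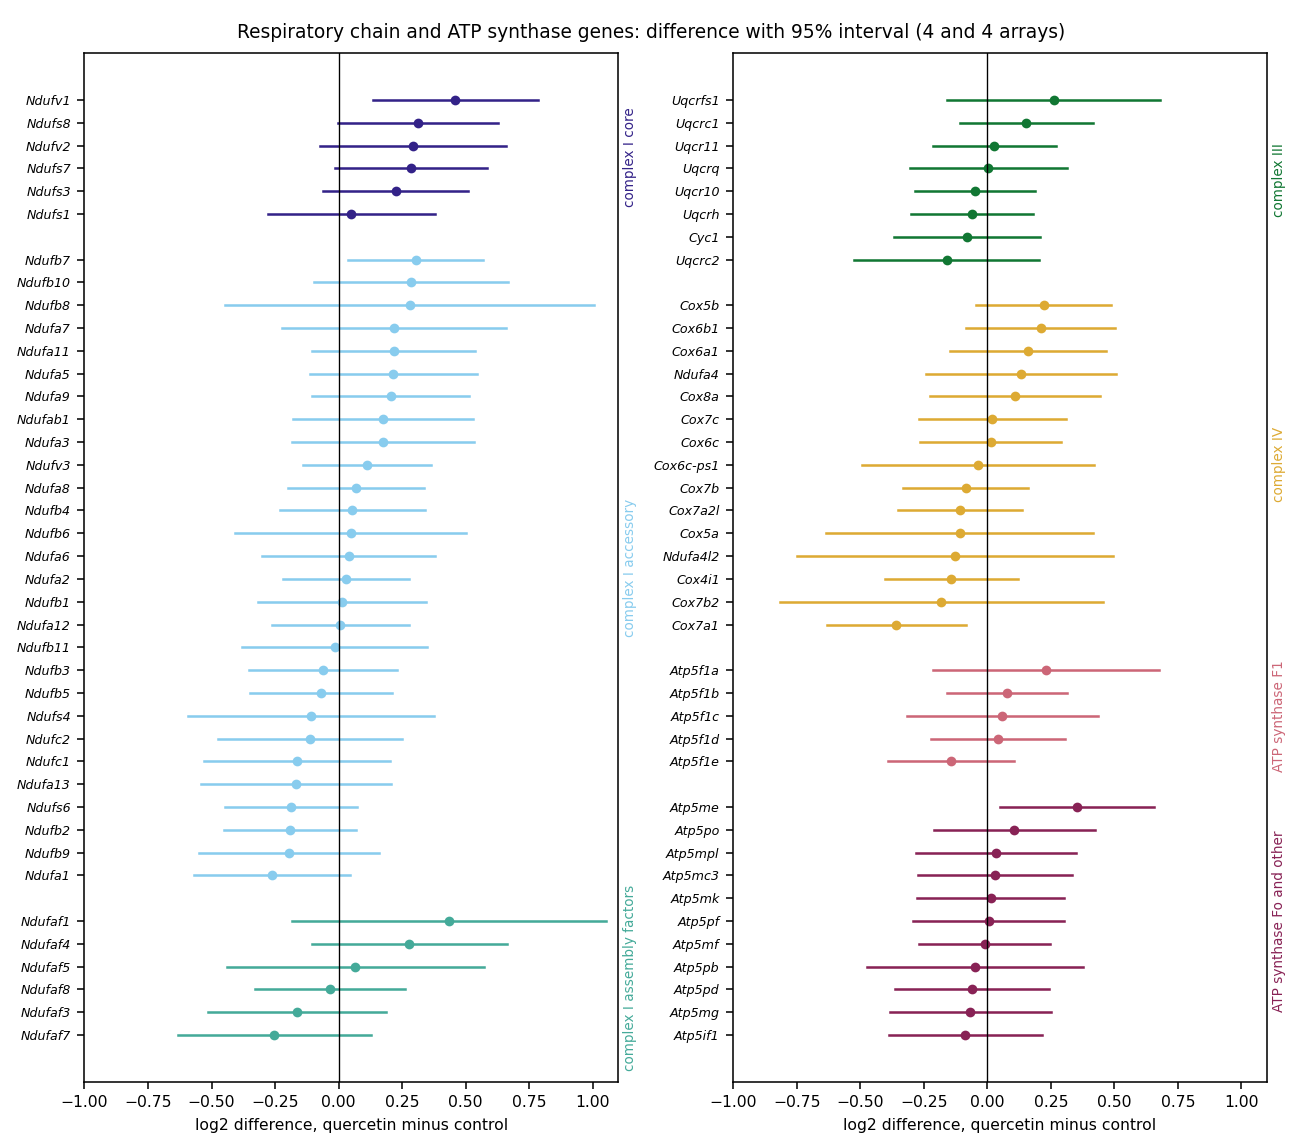
Log2 difference (quercetin minus control) of each of the 79 members tested, as a point with its 95% interval from limma, ordered within the groups named at the right edge of each panel. The intervals of 75 members cross 0, and those of Ndufv1, Ndufb7 and Atp5me lie above 0 and that of Cox7a1 below it, none of them past the adjusted threshold.

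Accessory subunits surround this core and the membrane arm of complex I. Of 28 measured, 17 had a higher and 11 a lower mean in the quercetin group. The median was 0.034 and the range -0.26 to 0.30. Without control array 2 it was 11 higher and 17 lower, with a median of -0.057. With all arrays 1 gene had an unadjusted p under 0.05. That gene was Ndufb7, a subunit on the intermembrane side of the membrane arm, with signals of 1598, 1409, 1603 and 1489 on control arrays 1 to 4 and 1920.0, 2091, 1622 and 1925 on quercetin arrays 1 to 4. The groups did not overlap, although quercetin array 3 exceeded control array 3 by only a little, and the gene had a log2 difference of 0.30 (SE 0.12, 95% interval 0.036 to 0.57, limma adjusted p = 0.404). Ndufb10, another subunit of the membrane arm, had 0.28 (SE 0.18, adjusted p = 0.602), with 1029 on control array 2 against 1586 to 1695 on the other controls. Without control array 2 that difference was 0.12.

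Ndufa1, a small membrane subunit needed for assembly, had the lowest difference of complex I, with signals of 12653, 8602, 9716 and 9914 on control arrays 1 to 4 and 9073, 7204, 9175 and 8413 on quercetin arrays 1 to 4. Control array 1 was the highest of all and quercetin array 2 the lowest, with the others close together, and the difference was -0.26 (SE 0.14, adjusted p = 0.539). Without control array 1 it was -0.16. Ndufb2 had -0.19 (SE 0.12, adjusted p = 0.606). For Ndufa7 the brighter probe set gave 0.22 (SE 0.20, adjusted p = 0.747) and the dimmer one -0.19, so its direction is not settled. The groups of Ndufv3 did not overlap either, with all quercetin arrays higher, by a difference of 0.11 (SE 0.12, adjusted p = 0.778); Ndufv3 was chosen after its values were seen.

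Assembly factors build complex I and do not stay in it. The 6 among the members were divided, 3 higher and 3 lower. Their median was 0.015, with 0 at an unadjusted p under 0.05. Ndufaf1, which guides an early membrane intermediate, had low signals of 43.4, 98, 37.9 and 38.1 on control arrays 1 to 4 and 99.5, 67.7, 76.1 and 58.2 on quercetin arrays 1 to 4. Control array 2 stood with the quercetin arrays and far from the other controls. The difference was 0.43 (SE 0.29, adjusted p = 0.625), and without control array 2 it was 0.69, with an adjusted p of 0.386. The difference of Ndufaf4 was 0.28 (SE 0.18, adjusted p = 0.611), that of Ndufaf7, a mitochondrial methyltransferase, -0.25 (SE 0.18, adjusted p = 0.644), and that of Ndufaf3 -0.16 (SE 0.16, adjusted p = 0.765).

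Complex III moves electrons from ubiquinol to cytochrome c. Its 8 genes were divided 4 and 4, with a median of -0.022, a range of -0.16 to 0.26 and 0 at an unadjusted p under 0.05. Uqcrfs1, the Rieske iron-sulfur protein, gave signals of 3939, 2070.5, 3170.2 and 2913 on control arrays 1 to 4 and 4317, 3459, 2697 and 3868 on quercetin arrays 1 to 4. The arrays of the groups were interleaved, with quercetin array 1 the highest and control array 2 the lowest, and the difference was 0.26 (SE 0.19, adjusted p = 0.672). The core proteins went to opposite sides of 0, Uqcrc1 with 0.15 (SE 0.12, adjusted p = 0.693) and Uqcrc2 with -0.16 (SE 0.17, adjusted p = 0.779), and the dimmer probe set of Uqcrc2 had -0.15. Cyc1, which carries the heme of cytochrome c1, had -0.08 (SE 0.13, adjusted p = 0.873), with a 95% interval of -0.37 to 0.21.

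Complex IV, cytochrome c oxidase, reduces oxygen to water. Of its 19 genes 15 were tested, 7 higher and 8 lower, with a median of -0.036, the value of the pseudogene Cox6c-ps1. With only the upper 40% of probe sets tested, 12 remained, 7 higher and 5 lower. Their median was 0.017, so its sign is not settled. Among the 15, 1 gene had an unadjusted p under 0.05. That gene was Cox7a1, the isoform of heart and skeletal muscle, with signals of 1787, 1849, 1698 and 1482 on control arrays 1 to 4 and 1185, 1475, 1335 and 1303 on quercetin arrays 1 to 4. The 4 quercetin signals were each below the lowest control signal, quercetin array 2 just under control array 4. The means were 1704 ± 161 in the control group and 1325 ± 119 in the quercetin group (SD, n = 4 each), with a log2 difference of -0.36 (SE 0.13, 95% interval -0.63 to -0.086, limma adjusted p = 0.348), or 0.78 times the controls.

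Muscle markers are given beside Cox7a1, since the mucosa lies on a thin muscle layer. All 14 smooth muscle markers were on the array, 9 of them bright enough to test. Of these 9, 4 had a higher and 5 a lower mean in the quercetin group, with a median log2 difference of -0.071. Tpm1 (-0.32, adjusted p = 0.413) was the 1 with an unadjusted p under 0.05. The largest difference was that of Tpm2, 0.71 (SE 0.37, adjusted p = 0.515), at signals of 12.3 to 95.3. Myh11, the smooth muscle myosin, had signals of 113 to 185 and a difference of -0.24 (SE 0.19, adjusted p = 0.7). Acta2, smooth muscle actin, had 78.1 to 235 with 0.11 (SE 0.30, adjusted p = 0.934), Des, the filament desmin, 0.11 (SE 0.33, adjusted p = 0.937), and Mylk, the kinase that starts contraction, -0.42 (SE 0.21, adjusted p = 0.491). Tagln, Cnn1, Myl9, Actg2 and Lmod1 were too dim to test, at signals of 1.44 to 46.1. The summed signal of the 14 was 3978 to 5947 in the control and 3445 to 3847 in the quercetin group, but most of it is Tpm1 and Mylk, and the mean log2 difference over the 14 was 0.0041. Of 6 striated muscle markers 5 were on the array and 1 was tested, Acta1 with 0.74 (SE 0.50, adjusted p = 0.636). Ckm, Myh7, Tnnt3 and Mb, too dim to test, had signals of 0.9 to 74.5. The markers named in this paragraph were chosen after their values were seen. The part of muscle tissue in the Cox7a1 values was not tested.

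Like Cox7a1, the paired isoforms of complex IV that were tested did not pass the adjusted threshold. Cox4i1, the common form of the subunit through which ATP restrains the enzyme, had -0.14 (SE 0.12, adjusted p = 0.72). Cox4i2, its counterpart in lung and at low oxygen, was too dim to test, with signals of 7.3, 5.07, 12.2 and 12.4 on control arrays 1 to 4 and 27.4, 50.1, 39.6 and 5.41 on quercetin arrays 1 to 4. Quercetin arrays 1 to 3 lay above all controls and array 4 among them, at levels where MAS5 signals scatter widely. Cox8b, the heart and skeletal muscle form of subunit 8, was also too dim, with 34.6 and 45 on control arrays 3 and 4 and 2.05 to 7.37 on the other 6. Cox6a2, the muscle form of subunit 6a, had 1.57 to 37.7 and Cox6b2, the testis form of subunit 6b, 1.55 to 7.4, both untested. Their broadly expressed partners had differences of 0.16 (SE 0.14, adjusted p = 0.737) for Cox6a1, 0.21 (SE 0.14, adjusted p = 0.618) for Cox6b1 and 0.11 (SE 0.15, adjusted p = 0.846) for Cox8a.

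Cox5b, a zinc-binding subunit, had signals of 7104, 5408, 5572 and 6218 on control arrays 1 to 4 and 6969, 7406, 6709 and 7108 on quercetin arrays 1 to 4. Control array 1 lay above 2 of the quercetin arrays and the other controls below all of them, with a difference of 0.22 (SE 0.12, adjusted p = 0.55). Cox7a2l, a relative of Cox7a1 that joins complexes III and IV into supercomplexes, had -0.11 (SE 0.11, adjusted p = 0.782). Ndufa4, named for complex I but held to be a subunit of complex IV, had 0.13 (SE 0.17, adjusted p = 0.83), and its low-oxygen relative Ndufa4l2 -0.13 (SE 0.29, adjusted p = 0.914) at signals of 26.9 to 70.3.

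ATP synthase turns the proton gradient into ATP with a rotating Fo part in the membrane and a catalytic F1 head. The 5 genes of F1 had 4 higher and 1 lower mean and a median of 0.06. Without control array 2 they had 1 higher and 4 lower, with a median of -0.041. Atp5f1b, the catalytic beta subunit, was among the tightest measurements, with signals of 10783, 11387, 11628 and 11621 on control arrays 1 to 4 and 12004, 12819.5, 11717 and 11359 on quercetin arrays 1 to 4. The groups overlapped over a narrow range, and the difference was 0.076 (SE 0.11, adjusted p = 0.846) with an interval of -0.16 to 0.31. Atp5f1a, the alpha subunit, had 0.23 (SE 0.21, adjusted p = 0.738) with all arrays and -0.014 without control array 2, on which its signal was 2763 against 4628 to 6030.2 elsewhere. Atp5f1c, the central stalk, had 0.06 (SE 0.17, adjusted p = 0.937), and its sign turned without control array 2 (-0.095). Atp5f1e, the smallest F1 subunit, had signals of 8436, 9834, 8459.9 and 8380.1 on control arrays 1 to 4 and 8011, 8118, 8288 and 7329.6 on quercetin arrays 1 to 4. The quercetin arrays lay below the controls without overlap, control array 2 stood high, and the difference was -0.14 (SE 0.11, adjusted p = 0.698), or -0.088 without that array.

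In the Fo part, the stalks and their regulators, 11 genes were tested. Without control array 2, 3 had a higher and 8 a lower mean, with a median of -0.078. With all arrays it was 6 higher and 5 lower, with a median of 0.0049. Atp5me, the e subunit that helps pair the enzyme into dimers, was the 1 gene with an unadjusted p under 0.05, with signals of 2151, 1681, 2132 and 1778 on control arrays 1 to 4 and 2818, 2219.7, 2731 and 2148 on quercetin arrays 1 to 4. Quercetin arrays 1 and 3 were the highest, array 2 lay just above all controls and array 4 level with control arrays 1 and 3, and the gene had a log2 difference of 0.35 (SE 0.14, 95% interval 0.049 to 0.66, limma adjusted p = 0.391). Its second probe set, near the bottom of the tested range with a mean signal of 32.7, had -0.65 (SE 0.33), and the mean of both sets -0.15, so the direction depends on the probe set. Atp5po, a subunit of the peripheral stalk, had 0.11 (SE 0.15, adjusted p = 0.84), and -0.38 on an untested dim set. Atp5mc3, a gene of the proton-carrying c ring, had 0.031 (SE 0.14, adjusted p = 0.961), Atp5mg -0.068 (SE 0.15, adjusted p = 0.911), and Atp5if1, the inhibitor that stops the enzyme from running backwards, -0.087 (SE 0.14, adjusted p = 0.867), with -0.18 and -0.38 on its dimmer sets.

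**Figure D3:**
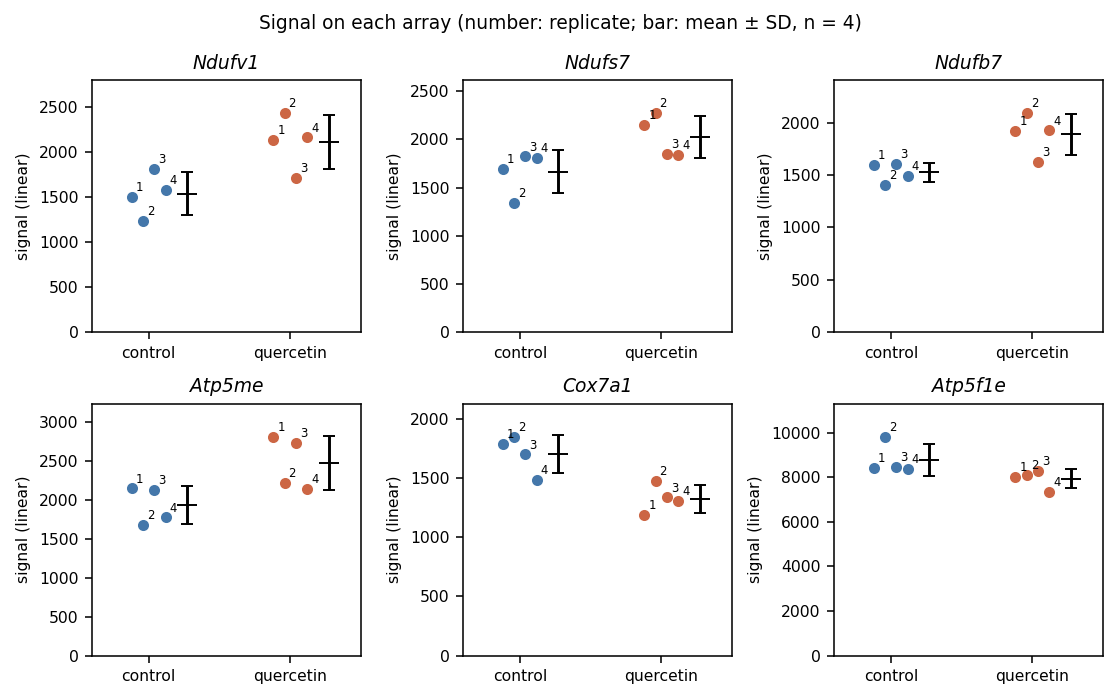
Linear MAS5 signal of 6 members on each of the 4 control and 4 quercetin arrays; the number beside a point is the replicate of the label and the bar is the mean ± SD (n = 4). The groups do not overlap for Ndufs7, Ndufb7, Cox7a1 and Atp5f1e, and overlap at 1 quercetin array for Ndufv1 and Atp5me.

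Groups that do not overlap were found for 5 of the 79 members, Ndufs7, Ndufb7 and Ndufv3 with higher and Cox7a1 and Atp5f1e with lower quercetin signals. Over all genes tested 5.84% had no overlap, 3.77% on the higher and 2.07% on the lower side, so the members' count is near the background.

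Many of these genes had their extreme signals on the same few arrays. Control array 2 had the lowest signal of the 8 arrays for 42 of the 83 members, and for 2080 of the 10266 genes tested. Control array 1 had the highest for 29 members and 1598 of all genes, and quercetin array 1 for 24 and 1590. On control array 2 the signal was the highest for 7 members and for 2100 of all genes. The mean deviation over all 83 was 0.11, -0.18, 0.041 and -0.046 on control arrays 1 to 4 and 0.14, 0.062, -0.04 and -0.09 on quercetin arrays 1 to 4, or a group mean of -0.019 ± 0.13 for the control and 0.019 ± 0.10 for the quercetin arrays (SD, n = 4 each). Accessory subunits of complex I had 0.22 on control array 1 and -0.30 on control array 2, and assembly factors went the other way, with -0.12 and 0.21.

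Transcripts from mitochondrial DNA were on the opposite side on control array 2. Of 13 such genes, 2 had a probe set with 1 symbol, COX1 and COX2, which encode the catalytic core of complex IV. COX1 gave 25351, 45285, 29277 and 27772 on control arrays 1 to 4 and 24622, 27724, 29493 and 20939.9 on quercetin arrays 1 to 4. COX2 gave 29160.0, 51397, 31339 and 30766 on control arrays 1 to 4 and 26552, 32643, 35021 and 26199 on quercetin arrays 1 to 4. For both, control array 2 was the highest of the 8, with no other array close to it. Among the 83 nuclear members that array was the lowest of the 8 for 42 and the highest for 7. Between the diets COX1 had -0.29 (SE 0.18, adjusted p = 0.611) and COX2 -0.22 (SE 0.18, adjusted p = 0.72). Markers of absorptive colonocytes, 9 of 9 on the array, had the sign of the nuclear members on the first 2 control arrays, with a mean deviation of 0.33 and -0.46. On control array 3 and quercetin arrays 3 and 4 the signs were opposite. There the markers had -0.065, 0.018 and 0.18 and the 83 members 0.041, -0.04 and -0.09. The summed signal of these markers was 53155 to 74103 in the control and 62545 to 71438 in the quercetin group. Of the markers of cycling crypt cells 4 of 4 tested were higher in the quercetin group, against 55.9% of all genes tested. At an unadjusted p under 0.05 there were 3, against 9.39% of all genes, and 0 passed the adjusted threshold. The 4 had a median of 0.80. Cdk1, the kinase that drives mitosis, had 0.92 (SE 0.25, adjusted p = 0.279), Ccnb1, its cyclin partner, 0.67 (SE 0.22, adjusted p = 0.34), Top2a 0.77 (SE 0.31, adjusted p = 0.392) and Mki67 0.82 (SE 0.38, adjusted p = 0.466). All 4 were picked once their values had been seen. With the stem cell markers Lgr5 and Ascl2, too dim to test, their mean deviation was -1.08, 0.26, 0.14 and -0.43 on control arrays 1 to 4 and 0.77, 0.33, -0.018 and 0.023 on quercetin arrays 1 to 4. This mean was lowest on control array 1, on which 29 of the 83 members were highest. It was highest on quercetin array 1, on which 24 of the 83 members were highest. The part of RNA quality and of cell content in this pattern was not tested.

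**Figure D4:**
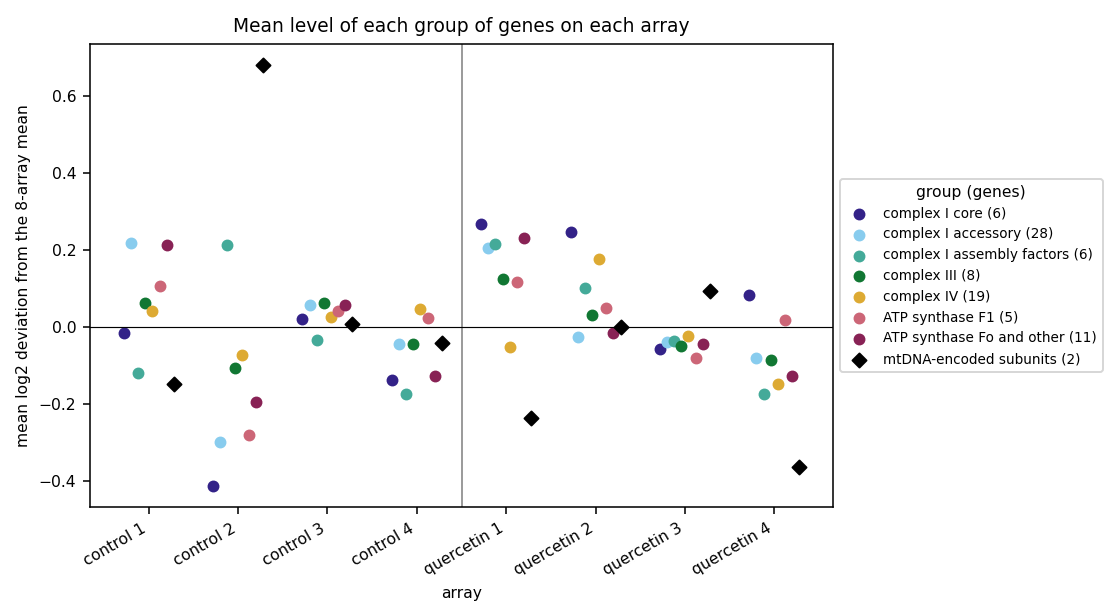
Mean log2 deviation from the 8-array mean (vertical axis) of each group of members, and of the 2 transcripts from mitochondrial DNA, on each array (horizontal axis); the number of genes is in brackets. On control array 2 the complex I core is at -0.41 and the mitochondrial transcripts at 0.68, on opposite sides of 0.

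Other parts of the pathway also held no gene past the adjusted threshold. Over all genes tested 55.9% were higher in the quercetin group and 9.39% had an unadjusted p under 0.05. Complex II, the succinate dehydrogenase that belongs to both the chain and the citric acid cycle, had 5 of 8 genes higher with a median of 0.05 and 0 at an unadjusted p under 0.05; Sdha, its flavoprotein, had 0.21 (SE 0.13, adjusted p = 0.609) and the assembly factor Sdhaf1 0.28 (SE 0.17, adjusted p = 0.606). Further assembly factors, of complexes I and III to V, and factors that supply copper and heme had 22 of 33 higher and a median of 0.079. The 1 gene at that p, or 3.03% of the 33, was Taco1, a translation activator of mitochondrial COX1. It had 0.65 (SE 0.30, adjusted p = 0.464) at signals of 15.4 to 66.7. Coa3 had 0.27 (SE 0.16, adjusted p = 0.583). Transcription factors and coactivators of mitochondrial genes had 8 of 12 higher, a median of 0.088 and 0 at that p, with 0.33 (SE 0.16, adjusted p = 0.482) for Gabpb1 and 0.32 (SE 0.19, adjusted p = 0.585) for Gabpa, the subunits of GABP. The coactivator PGC-1 alpha, Ppargc1a, had -0.015 and was chosen after its values were seen.

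Synthesis of coenzyme Q, the carrier between complexes I and III, had 7 of 12 genes higher with a median of 0.14, and 1, Coq7, with an unadjusted p under 0.05. These are 58.3% higher, against 55.9% of all genes tested, and 8.33% at that p, against 9.39% of all genes. Coq7, which hydroxylates the ring, gave 150.4, 196, 293 and 222 on control arrays 1 to 4 and 374, 352, 318 and 331 on quercetin arrays 1 to 4. All quercetin arrays lay above all controls, and the difference was 0.67 (SE 0.19, adjusted p = 0.28); Coq6, an earlier hydroxylase, had 0.30 (SE 0.16, adjusted p = 0.535). Carriers of ADP, ATP, phosphate and protons, with the outer membrane Vdac genes and the member Atp5if1, had 3 of 8 tested genes higher (37.5%). At an unadjusted p under 0.05 there was 1, Ucp2, or 12.5% against 9.39% of all genes. Ucp2, an uncoupling protein of the inner membrane, gave 1128, 665, 824 and 840.0 on control arrays 1 to 4 and 1253, 1326, 1163 and 1348 on quercetin arrays 1 to 4. The quercetin arrays again lay above all controls, with a difference of 0.57 (SE 0.16, adjusted p = 0.279). Slc25a5, an ADP/ATP carrier, was lower on each quercetin array than on any control array, with a difference of -0.24 (SE 0.12, adjusted p = 0.488).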

How the data were processed

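Total RNA of 8 samples was hybridised to Affymetrix rat arrays. The authors deposited linear intensity values, which are MAS5 signals per the submitters' processing notes. The 2% trimmed mean of the deposited intensity was 200.1 on each array. No further step is stated in the labels. Groups came from the sample titles. After 57 array controls were left out, log2(signal + 16) of the upper 60% of probe sets by mean, 18625 in all, was compared between the diets by limma 3.58.1 in R 4.3.3 (lmFit, eBayes with trend, two-sided, Benjamini-Hochberg adjustment over all probe sets, threshold 0.05). Every adjusted p is from this fit. The platform annotation names 1 gene for 20826 probe sets, several genes for 436 and no gene for 9780. The steps were tested on simulated data.

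The members and lists were chosen with earlier results of these data known. Named are the 4 members with the smallest p in each role group, isoform families, genes whose probe sets differ in sign, and the 2 smallest p of each other list; others are said to be chosen after their values were seen. The promoter motifs were chosen after the data were seen, and the NRF1 motif was shortened by its last base after a first search with the full palindrome, which had fewer matches both in members and in all promoters. Alternatives tried were array weights, other pseudocounts (1 and 64), median centring or quantile normalisation of the arrays, a filter at the upper 40% or none, the replicate block, no trend, the GAPDH ratio as covariate, 1 probe set per gene, means of probe sets, the brightest set by linear signal, and arrays left out. The precision is set by the number of arrays: the median standard error was 0.222 over all probe sets.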

Additional observations from a re-analysis of the deposited data

Results flagged for a closer look

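For 39 members and 8 group means, taken by diet, 94 sets of 4 arrays were screened for a lone distant array. It was found in 6, close to the 4.7 that chance would give. Each value in brackets is the distance to the next array divided by the full spread of the 4. Control array 2 lay low for Ndufb10 (0.866) and Ndufa7 (0.856) and high for Ndufaf1 (0.871) and Atp5f1e (0.941). Control array 1 lay high for Cox7a2l (0.832), and quercetin array 2 lay high for Uqcrc1 (0.874).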

How the results depend on the processing

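No member passed the adjusted threshold under any alternative run: of 698 alternative values of the 35 named members tested, 682 had the same sign, 16 the other, and the smallest adjusted p was 0.193 (Ndufv1 with the GAPDH ratio as a covariate). The probe sets past the threshold, 2 with the values as reported, were 1 with a pseudocount of 1, quantile normalisation, median centring, no filter, no trend, 1 probe set per gene or the replicate number as a block, and 0 without control arrays 1 and 2; leaving out single arrays gave 1 to 2. The deviations of equal replicate numbers correlated at -0.023, 0.16, -0.15 and 0.14, and those of unequal numbers at -0.20 to 0.17. So few values cannot settle whether equal numbers belong together. The replicate block left 4 members at an unadjusted p under 0.05, or 5.06% against 9.1% of all genes. That count of 4 was 7 with no filter over the 83 members, which include those too dim for the reported test. Among the 79 tested members it was 4 higher and 1 lower, or 6.33% against 9.32% of all genes. It was 2 without the trend (7.88% of all genes) and 8 with the GAPDH ratio (13.4% of all genes). Without control arrays 1 and 2 it was 2 (Ndufv2 and Ndufaf1, 0 of the 4), with 6.55% of all genes. With 1 array left out it was 2 to 8, with 6.01% to 10.6% of all genes.

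Signs turned for 7 members, and the cause was not tested. Atp5f1c was -0.0066 with array weights, -0.0093 with the GAPDH ratio and -0.010 without control arrays 1 and 2, and Atp5mc3 -0.035, -0.0095 and -0.048 in the same fits. With a gene's probe sets averaged Atp5me was -0.15 and Atp5po -0.14. With 1 array left out the values ran from -0.095 to 0.17 for Atp5f1c, -0.084 to 0.093 for Atp5mc3, -0.014 to 0.36 for Atp5f1a, -0.15 to 0.020 for Atp5mg and -0.047 to 0.21 for Cox8a. The number of arrays limits precision, and signals near the bottom of the scale scatter most.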
